A study of Mus musculus with 6 samples.

Results

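The Cyp2 family of cytochromes P450 was followed in the livers of Balb/c and Balb/cBy mice. Members were the probe sets whose annotated symbol is Cyp2, a letter and a number, alone or shared with other Cyp2 symbols only, which leaves out Cyp27 genes. This gave 53 of the 41345 probe sets of the array: 49 genes with a probe set of their own and 1 set shared by Cyp2c67 and Cyp2c68, or 50 members. Where a gene had more than 1 probe set, which was so for 3 genes, the one with the highest mean is given. Liver RNA came from 6 male mice, each on its own whole-transcript array, 3 of the substrain Balb/c (which the labels also call WT) and 3 of Balb/cBy (which they also call KD). All 6 were put on a high-fat diet, with 58% of energy as fat, at 8 weeks of age and kept on it for 12 weeks, so they were 20 weeks old and no mouse on another diet was part of the comparison. The labels name no gene or allele for the term KD. The labels describe each array as a biological replicate, so the spread given is that between arrays of different mice. With 1 array per mouse, differences between mice cannot be told apart from those of tissue sampling, labelling or array.

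Cytochromes P450 are haem enzymes of the endoplasmic reticulum that insert an oxygen atom into their substrate, with electrons passed on by a reductase and cytochrome b5. The Cyp2 family holds most of the foreign-compound metabolism of mouse liver together with hydroxylation of steroids and epoxidation of polyunsaturated fatty acids. Its genes lie in tandem clusters of close copies, many are set by the nuclear receptors CAR and PXR, by HNF4A and by the pulses of growth hormone that differ between male and female mice, and several sit in a particular zone of the liver lobule.

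Close copies are a property of this family that may bear on the values below, since an array probe can read a neighbour as well as its own gene. The start regions of 3 such pairs are shown for that reason, taken from RefSeq on build GRCm38.p6, each from 250 bases before to 50 after the annotated start. Capitals mark TATAAA, the HNF1 element GTTAAT and the nuclear receptor element AGGTCA, on either strand. They are Cyp2a4 (chr7:26306942-26307241, plus strand), Cyp2a5 (chr7:26835089-26835388, plus strand), Cyp2b9 (chr7:26173159-26173458, plus strand), Cyp2b13 (chr7:26061245-26061544, plus strand), Cyp2c68 (chr19:39741052-39741351, minus strand) and Cyp2c69 (chr19:39886720-39887019, minus strand).
Cyp2a4: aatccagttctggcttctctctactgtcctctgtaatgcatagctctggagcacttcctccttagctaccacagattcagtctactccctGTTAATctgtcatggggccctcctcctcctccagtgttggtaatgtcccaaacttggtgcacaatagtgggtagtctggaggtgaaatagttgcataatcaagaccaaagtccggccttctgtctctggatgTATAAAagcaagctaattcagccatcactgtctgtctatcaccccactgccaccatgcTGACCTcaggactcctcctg
Cyp2a5: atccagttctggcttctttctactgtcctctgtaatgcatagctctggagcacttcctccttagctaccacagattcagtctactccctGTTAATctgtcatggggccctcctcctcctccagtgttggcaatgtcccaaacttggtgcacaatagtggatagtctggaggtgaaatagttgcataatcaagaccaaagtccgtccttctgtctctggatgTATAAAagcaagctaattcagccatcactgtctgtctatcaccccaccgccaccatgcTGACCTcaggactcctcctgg
Cyp2b9: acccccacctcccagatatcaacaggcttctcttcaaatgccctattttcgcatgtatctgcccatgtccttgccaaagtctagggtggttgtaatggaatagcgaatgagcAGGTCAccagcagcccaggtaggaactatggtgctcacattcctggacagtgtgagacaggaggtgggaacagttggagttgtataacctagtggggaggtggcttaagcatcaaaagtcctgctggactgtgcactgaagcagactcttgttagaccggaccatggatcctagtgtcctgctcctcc
Cyp2b13: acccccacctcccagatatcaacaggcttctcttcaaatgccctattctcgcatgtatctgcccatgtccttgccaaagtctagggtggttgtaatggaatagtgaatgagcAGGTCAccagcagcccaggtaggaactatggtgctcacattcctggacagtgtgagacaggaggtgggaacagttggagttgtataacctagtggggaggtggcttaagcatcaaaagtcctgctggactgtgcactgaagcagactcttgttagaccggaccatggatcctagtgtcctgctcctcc
Cyp2c68: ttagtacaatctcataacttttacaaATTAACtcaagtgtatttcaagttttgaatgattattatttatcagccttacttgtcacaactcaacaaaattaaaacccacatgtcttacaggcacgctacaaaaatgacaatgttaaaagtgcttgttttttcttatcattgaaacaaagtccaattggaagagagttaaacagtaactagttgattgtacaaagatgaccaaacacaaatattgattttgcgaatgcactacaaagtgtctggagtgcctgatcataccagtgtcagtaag
Cyp2c69: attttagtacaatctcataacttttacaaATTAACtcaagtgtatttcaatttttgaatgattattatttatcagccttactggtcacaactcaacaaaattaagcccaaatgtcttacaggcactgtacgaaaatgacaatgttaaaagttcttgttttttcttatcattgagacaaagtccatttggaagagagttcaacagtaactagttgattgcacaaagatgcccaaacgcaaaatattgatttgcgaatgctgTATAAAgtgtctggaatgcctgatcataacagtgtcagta
In a global alignment the windows of Cyp2b9 and Cyp2b13 were identical at 298 of 300 aligned columns (99.3%). Those of Cyp2a4 and Cyp2a5 were identical at 294 of 301 (97.7%) and those of Cyp2c68 and Cyp2c69 at 277 of 304 (91.1%). Start regions were found for 40 of the 50 member symbols, as 42 windows. TATAAA was in 21 of the 42, against 13.6% of all 32851 windows in the table. AGGTCA was in 13 (31.0%, against 16.3%) and GTTAAT in 6 (14.3%, against 7.1%). Neither the C/EBP site TTGCGCAA nor the PAR-bZIP site TTATGTAA was in any member window, and over all windows their shares were 0.183% and 0.938%. Some marked matches lie after the annotated start. These are AGGTCA (printed as TGACCT) at position 281 of the Cyp2a4 window and 280 of the Cyp2a5 window, and TATAAA at position 261 of the Cyp2c69 window. Windows of close copies are not independent, and a match of letters is not a shown binding site. Likeness of start regions does not show whether probes within the transcripts are shared.

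The 6 arrays were alike in overall signal, with medians from 7.97 to 8.02 (log2) over the annotated probe sets. Limma's array weights ran from 0.479 for Balb/cBy replicate 1 and 0.626 for Balb/c replicate 3 to 2.42 for Balb/cBy replicate 3. Markers of hepatocytes were high on every array, Alb between 14.16 and 14.22 and Ttr between 13.84 and 13.98. Xist, which female cells express, read between 7.5 and 7.68 on the 6 arrays. That is under 8.015, below which 95% of 1105 olfactory receptor genes lie by their mean. Liver is not known to use those genes, so this value, called the olfactory receptor level, stands in for background. Of the Y-linked genes Uty read 8.01 to 8.86, Kdm5d 7.45 to 8.27 and Eif2s3y 7.61 to 9.14. Eif2s3y was under that level on Balb/c replicate 2 and Balb/cBy replicate 1, and Kdm5d on every array but Balb/c replicate 3. Uty read 8.01 on Balb/c replicate 1 and 8.02 on Balb/cBy replicate 1, about at that level. These probe sets therefore do not settle the labelled sex on every array. Acads, the acyl-CoA dehydrogenase gene known to be deleted in part in the BALB/cBy substrain, differed by -0.65 ± 0.12 (SE) between Balb/cBy and Balb/c. It still read 10.6 to 10.93 in Balb/cBy, against 11.28 to 11.53 in Balb/c, and the position of its probes within the gene was not known here, which limits it as a check of the labels.

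None of the Cyp2 members differed between the substrains beyond the spread of the arrays once all probe sets were taken into account. With limma, 0 of 50 members and 0 of 25335 annotated probe sets (0.0%) had a Benjamini-Hochberg adjusted p under 0.05. At an unadjusted p under 0.05 there were 3 members (6.0%), Cyp2d12 and Cyp2c54 higher and Cyp2c23 lower in Balb/cBy. Over all 23627 genes and shared sets the same share was 3.74% (2.59% higher and 1.15% lower), so 3 of 50 is near the background. The groups did not overlap in 5 members, 3 higher and 2 lower in Balb/cBy, against 7.81% of all genes (4.35% higher and 3.46% lower). Differences are in log2 units with Balb/c subtracted from Balb/cBy, and their median was -0.0039 over the members and -0.0026 over all genes. Of the 50 members, 24 were higher and 26 lower, and 35 differed by less than 0.2 in either direction.

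The count at an unadjusted p depended on the arrays used. Without Balb/c replicate 3 it was 9 (18.0%, against 4.83% of all genes), 8 of them higher in Balb/cBy. Without Balb/cBy replicate 1 it was 5, against 8.01% of all genes. Without the 2 arrays of lowest weight it was 10 (20.0%, against 9.69%), and 0 members passed the adjusted threshold in any of these fits.

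**Figure D1:**
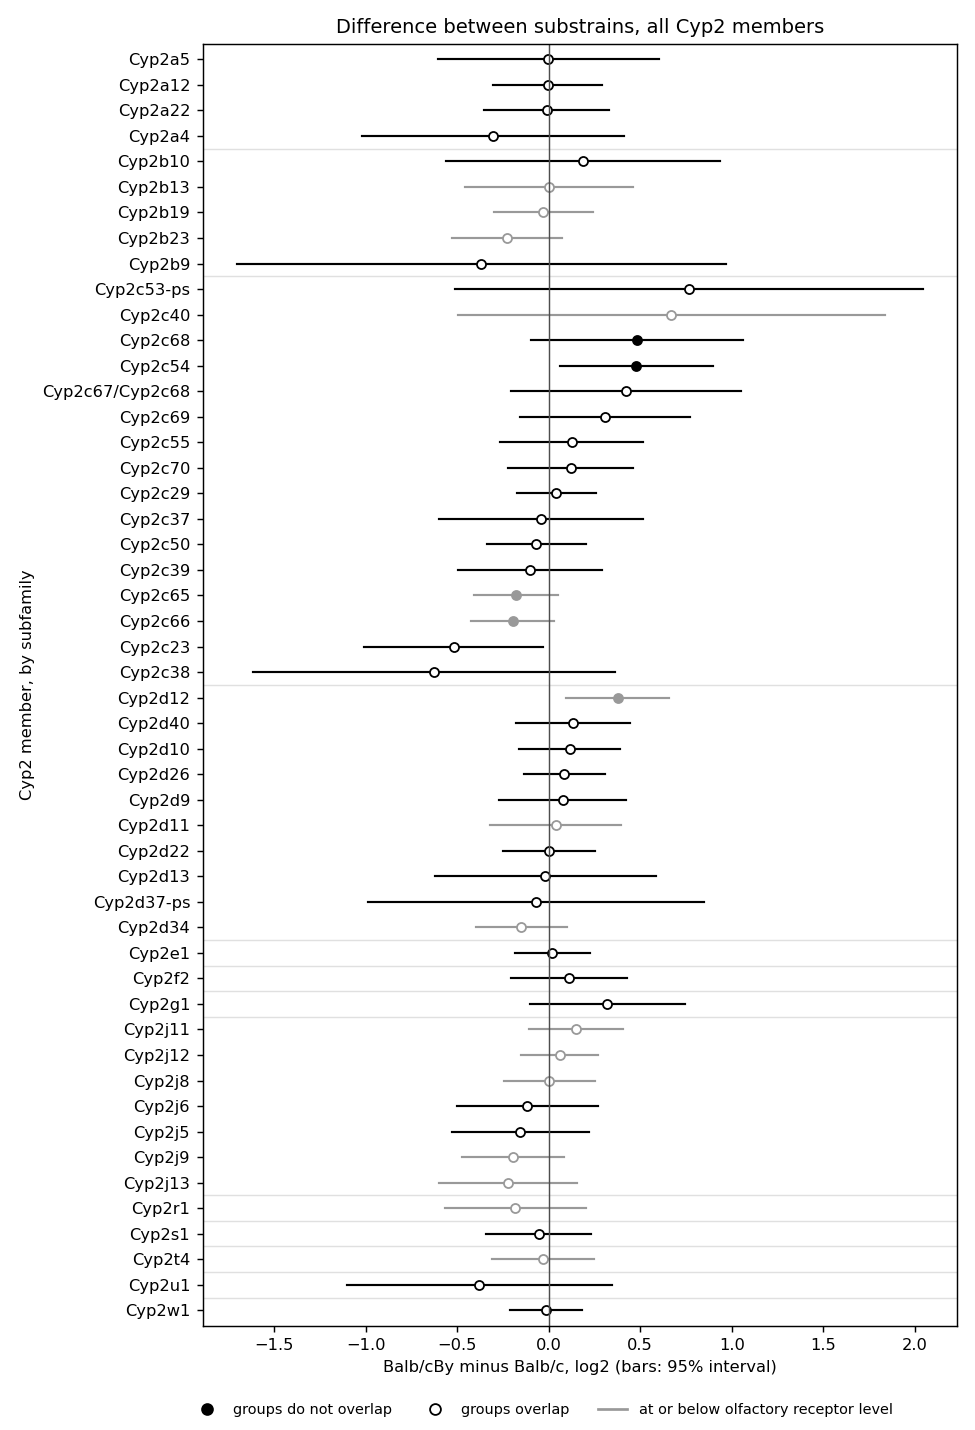
Difference between substrains (Balb/cBy minus Balb/c, log2) for each of the 50 Cyp2 members by subfamily, with limma's 95% interval as a bar; filled points mark the 5 members whose groups do not overlap, and grey marks the 16 members at or below the olfactory receptor level. Most intervals cross 0; those of Cyp2c54, Cyp2d12 and Cyp2c23 do not, before adjustment for the number of probe sets.

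Several members with a steady signal had a closely bounded difference. Cyp2e1, the pericentral enzyme that oxidizes ethanol, acetaminophen and ketone bodies, read 14, 13.98 and 14 (log2) in Balb/c and 13.93, 14.08 and 14.03 in Balb/cBy. The groups overlapped, and the difference of 0.02 ± 0.09 (SE) had a 95% interval of 0.881 to 1.17 times the Balb/c level. Cyp2c29, an epoxygenase of arachidonic acid that phenobarbital induces, read 13.66, 13.63 and 13.74 in Balb/c and 13.72, 13.82 and 13.62 in Balb/cBy, with an interval of 0.886 to 1.2 times. A dimmer probe set of Cyp2c29 had the other sign, at -0.14 ± 0.53 (SE), and read 9.20 on Balb/c replicate 3 beside 6.96 to 8.12 on the other arrays. Cyp2d26 (0.909 to 1.24 times) and Cyp2d22 (0.842 to 1.19 times) were held about as closely. The intervals of these 4 genes thus stayed within 0.842 to 1.24 times the Balb/c level, by array signal. Cyp2e1 and Cyp2c29 read near the highest mean of any gene, 14.18. Whether signals that high were saturated, which would narrow spread and difference, was not tested.

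**Figure D2:**
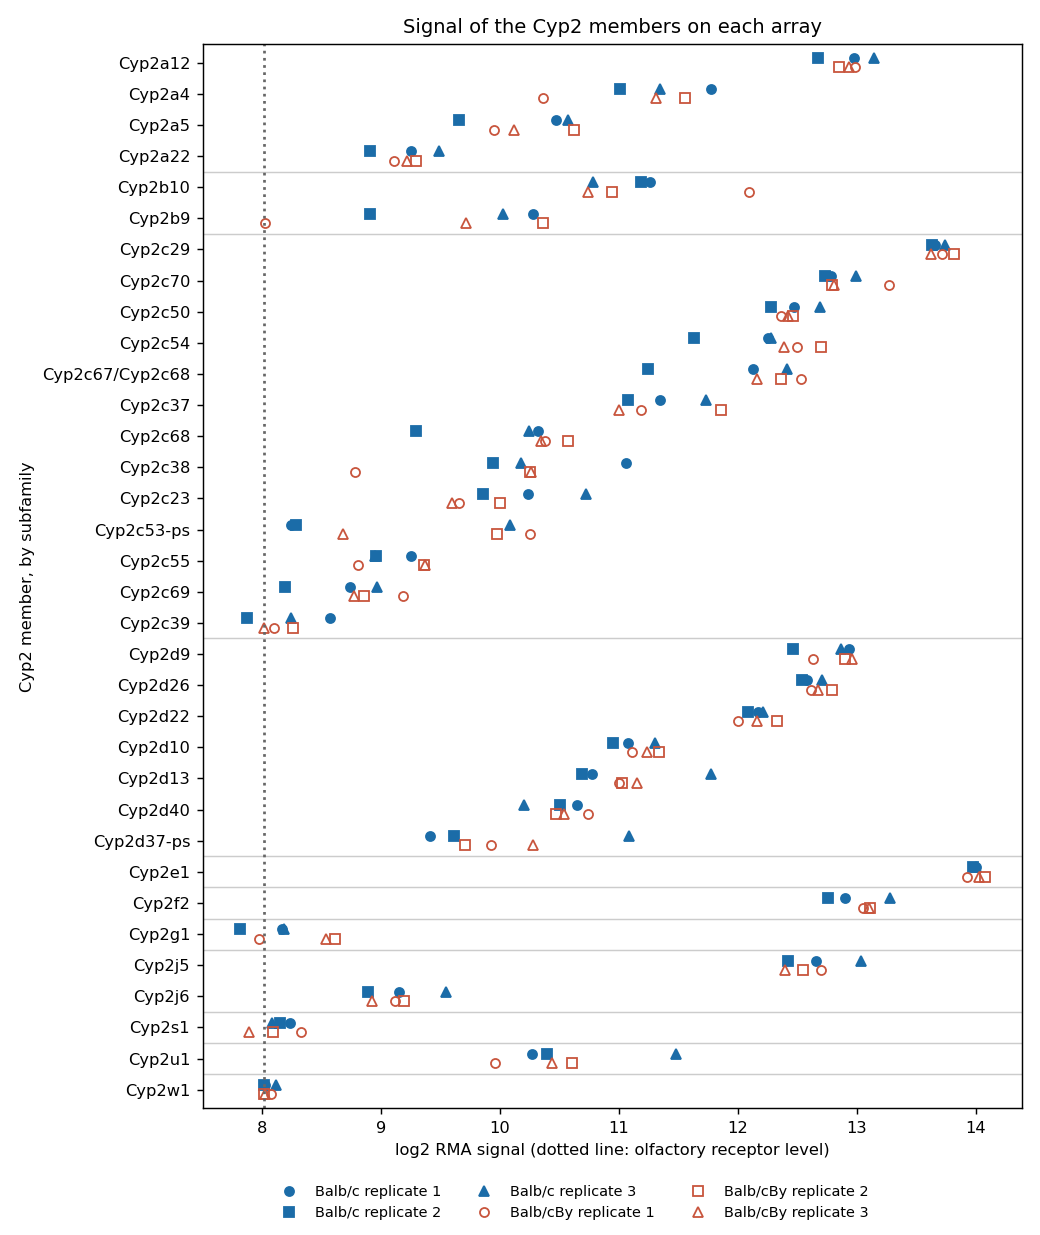
Signal (log2 RMA) of the 34 Cyp2 members above the olfactory receptor level on each array, by subfamily; filled blue symbols are the 3 Balb/c arrays, open red symbols the 3 Balb/cBy arrays, and the symbol shape gives the replicate. Levels of different members come from different probes and are not to be set against each other; Cyp2e1 and Cyp2c29 are tight, while Cyp2b9, Cyp2c38 and Cyp2c53-ps are wide within each substrain.

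The Cyp2a subfamily includes Cyp2a5, the coumarin and nicotine hydroxylase of liver, and its close copy Cyp2a4, a testosterone hydroxylase that is higher in female than in male mouse liver. All 4 measured Cyp2a genes were above the olfactory receptor level, and 0 of the 4 had an unadjusted p under 0.05. Cyp2a12, a steroid hydroxylase, read 12.97, 12.67 and 13.14 in Balb/c and 12.98, 12.85 and 12.94 in Balb/cBy, a difference of -0.01 ± 0.13 (SE). Cyp2a4 read 11.77, 11.01 and 11.35 in Balb/c and 10.36, 11.55 and 11.31 in Balb/cBy. Its lowest value was that of Balb/cBy replicate 1, the groups overlapped, and the difference was -0.30 ± 0.31 (SE). Cyp2a5 had its lowest value on Balb/c replicate 2, at 9.65, with 10.47 and 10.57 on the other Balb/c arrays and 9.95 to 10.62 in Balb/cBy. The difference of Cyp2a5 was -0.0020 ± 0.26 (SE), and that of Cyp2a22 was -0.01 ± 0.15 (SE).

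In the Cyp2b subfamily the widest spread belonged to Cyp2b9, a steroid hydroxylase that is higher in female mouse liver. It read 10.28, 8.91 and 10.02 in Balb/c and 8.02, 10.36 and 9.72 in Balb/cBy. Balb/c replicate 2 and Balb/cBy replicate 1 were the low arrays of their groups, the groups overlapped, and the difference was -0.37 ± 0.58 (SE). It turned to 0.30 without Balb/cBy replicate 1. Its close copy Cyp2b13 was low on the same arrays, at 7.57 and 7.46, with 7.98 to 8.09 on the other 4, and its mean fell short of the olfactory receptor level.

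Cyp2b10, the gene most used as a readout of CAR, went the other way on Balb/cBy replicate 1. It read 11.26, 11.18 and 10.78 in Balb/c and 12.09, 10.94 and 10.74 in Balb/cBy, a difference of 0.19 ± 0.32 (SE). Without Balb/cBy replicate 1 the difference was -0.23 (unadjusted p = 0.202 by limma), and without the 2 arrays of lowest weight it was -0.38 (unadjusted p = 0.0157 by limma). Cyp2b23 and Cyp2b19, the latter an epoxygenase of skin, lay under the olfactory receptor level and differed by -0.23 ± 0.13 and -0.03 ± 0.12 (SE).

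The Cyp2c subfamily had 16 members, 13 of them above the olfactory receptor level. The groups did not overlap in 4 of the 16, against 7.81% of all genes, and of these 4 Cyp2c65 and Cyp2c66 lay under that level. Most of its genes encode epoxygenases and hydroxylases of arachidonic and linoleic acid. Of its members 9 were higher and 7 lower in Balb/cBy, with a median of 0.08 and a range from -0.63 to 0.77.

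Cyp2c54 read 12.25, 11.63 and 12.28 in Balb/c and 12.50, 12.70 and 12.39 in Balb/cBy. Every Balb/cBy array was above every Balb/c array, and Balb/c replicate 2 stood low. The difference was 0.48 ± 0.18 (SE; 1.39 times, 95% interval 1.04 to 1.86; unadjusted p = 0.0301 and adjusted p = 0.999 by limma). Without Balb/c replicate 2 it was 0.27, and it was 0.39 without Balb/cBy replicate 2 and 0.59 without Balb/c replicate 3.

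Cyp2c67, Cyp2c68, Cyp2c40 and Cyp2c69 follow each other in the RefSeq gene order of GRCm38.p6, and their probe sets shared the low reading of Balb/c replicate 2. The set shared by Cyp2c67 and Cyp2c68 read 12.13, 11.24 and 12.41 in Balb/c and 12.53, 12.36 and 12.16 in Balb/cBy. Cyp2c68 by its own set read 10.32, 9.29 and 10.24 in Balb/c and 10.38, 10.57 and 10.35 in Balb/cBy, and here the groups did not overlap. Cyp2c69 read 8.74, 8.19 and 8.96 against 9.19, 8.86 and 8.77. Cyp2c40, below the olfactory receptor level, read 6.44, 4.45 and 6.63 against 6.30, 6.76 and 6.46.

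The differences of these sets were 0.42 ± 0.27 for the shared one, 0.48 ± 0.25 for Cyp2c68, 0.67 ± 0.51 for Cyp2c40 and 0.31 ± 0.20 (SE) for Cyp2c69. Without Balb/c replicate 2 the first 3 were 0.08, 0.15 and -0.02. Whether these sets read each other's transcripts was not tested, so they may not be separate measurements. The start regions of Cyp2c67 and Cyp2c68, which share a probe set, were identical at 65.9% of aligned columns. Cyp2c37 and Cyp2c50, which lie on either side of Cyp2c54, differed by -0.04 ± 0.24 and -0.07 ± 0.12 (SE), and Cyp2c70, which makes muricholic acids in mouse bile acid synthesis, by 0.12 ± 0.15 (SE).

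Cyp2c23, an arachidonic acid epoxygenase, was the 1 Cyp2 member lower in Balb/cBy at an unadjusted p under 0.05. It read 10.23, 9.86 and 10.72 in Balb/c and 9.66, 9.997 and 9.59 in Balb/cBy, and the groups overlapped through Balb/c replicate 2. The difference was -0.52 ± 0.21 (SE; 0.697 times, 95% interval 0.496 to 0.98; unadjusted p = 0.0404 and adjusted p = 0.999 by limma). It was -0.29 without Balb/c replicate 3 and -0.73 without Balb/c replicate 2.

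Cyp2c38 and Cyp2c53-ps had large differences with wider errors. Cyp2c38 read 11.06, 9.94 and 10.18 in Balb/c and 8.78, 10.25 and 10.26 in Balb/cBy, with Balb/cBy replicate 1 far below the rest, and differed by -0.63 ± 0.43 (SE). Without Balb/cBy replicate 1 that value was -0.14, and without Balb/c replicate 1 it was -0.29. The pseudogene Cyp2c53-ps read 8.24, 8.28 and 10.08 in Balb/c and 10.25, 9.98 and 8.68 in Balb/cBy. Its arrays fell into a low and a high set that cut across the substrains, and the difference was 0.77 ± 0.55 (SE). With 1 array left out it ran from 0.45 to 1.38, the latter without Balb/c replicate 3 (unadjusted p = 0.011 by limma). The gut genes Cyp2c65 and Cyp2c66 did not overlap between groups, at -0.18 ± 0.10 and -0.20 ± 0.10 (SE), but read 5.53 to 5.86 and 4.49 to 4.86, far under the olfactory receptor level. Cyp2c55 and Cyp2c39, a retinoic acid hydroxylase, differed by 0.13 ± 0.17 and -0.10 ± 0.17 (SE).

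Among the 10 Cyp2d members 7 were higher and 3 lower in Balb/cBy, with a median difference of 0.06. Cyp2d9, a testosterone hydroxylase that is higher in male mouse liver, read 12.93, 12.47 and 12.87 in Balb/c and 12.63, 12.91 and 12.96 in Balb/cBy, a difference of 0.08 ± 0.15 (SE). Cyp2d12 had the smallest p of all members. It read 6.65, 6.83 and 6.89 in Balb/c and 7.38, 7.01 and 7.12 in Balb/cBy, so the groups did not overlap, and differed by 0.38 ± 0.12 (SE; unadjusted p = 0.0154 and adjusted p = 0.999 by limma). All its values lay under the olfactory receptor level. Cyp2d10 and Cyp2d40 differed by 0.11 ± 0.12 and 0.13 ± 0.14 (SE), and Cyp2d11 and Cyp2d34, both dim, by 0.04 ± 0.16 and -0.15 ± 0.11 (SE).

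Balb/c replicate 3 stood apart in Cyp2d37-ps and Cyp2d13, which RefSeq lists as transcribed pseudogenes and which are near each other in its gene order. Cyp2d37-ps read 11.09 there, against 9.41 and 9.62 in the rest of Balb/c and 9.70 to 10.28 in Balb/cBy. Cyp2d13 read 11.78 there, beside 10.77 and 10.68 in Balb/c and 11 to 11.15 in Balb/cBy. With all arrays they differed by -0.07 ± 0.40 and -0.02 ± 0.26 (SE). Without Balb/c replicate 3 the difference of Cyp2d37-ps was 0.45 (unadjusted p = 0.0331 by limma).

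Cyp2f2, which oxidizes naphthalene and marks periportal hepatocytes, read 12.90, 12.76 and 13.28 in Balb/c and 13.06, 13.11 and 13.10 in Balb/cBy. Balb/c replicate 3 was above all Balb/cBy arrays and the other Balb/c arrays below them, and the difference was 0.11 ± 0.14 (SE). A dimmer probe set of Cyp2f2 read 8.58, 8.34 and 8.66 in Balb/c and 8.87, 8.97 and 8.75 in Balb/cBy. There the groups did not overlap, at 0.33 ± 0.12 (SE; unadjusted p = 0.0207 by limma), so the probe sets of this gene had the same sign but not the same unadjusted call.

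Cyp2j5, an arachidonic acid epoxygenase of kidney and liver, read 12.65, 12.42 and 13.03 in Balb/c and 12.70, 12.55 and 12.39 in Balb/cBy, a difference of -0.16 ± 0.16 (SE). Of the 7 Cyp2j members 3 were higher and 4 lower, 0 had an unadjusted p under 0.05, and only Cyp2j5 and Cyp2j6 (-0.12 ± 0.17 SE) were above the olfactory receptor level. The other 5 ranged from -0.22 for Cyp2j13 to 0.15 for Cyp2j11.

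Of the 6 genes that are alone in their subfamily here, besides Cyp2e1 and Cyp2f2, 0 had an unadjusted p under 0.05. Cyp2u1, a fatty acid hydroxylase, read 10.27, 10.39 and 11.48 in Balb/c and 9.95, 10.61 and 10.44 in Balb/cBy. Balb/c replicate 3 was the high array, and the difference of -0.38 ± 0.31 (SE) was 0.0025 without it. Cyp2g1, known from olfactory mucosa, read 8.16, 7.81 and 8.18 in Balb/c and 7.97, 8.61 and 8.53 in Balb/cBy. Its difference was 0.32 ± 0.18 (SE), with a mean of 8.21, little above the olfactory receptor level. With 1 array left out it ran from 0.20 to 0.52 (unadjusted p from 0.00685 to 0.339 by limma). The largest was that without Balb/cBy replicate 1, a fit in which 8.01% of all genes had an unadjusted p under 0.05.

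Cyp2r1, the main hydroxylase that makes circulating vitamin D, differed by -0.18 ± 0.17 (SE) from a level under that of olfactory receptors. Cyp2s1, an enzyme of epithelia outside the liver, differed by -0.05 ± 0.12, Cyp2t4 by -0.03 ± 0.12 and Cyp2w1, known from fetal gut, by -0.01 ± 0.09 (SE). Cyp2s1 and Cyp2w1 read between 7.89 and 8.32, at about the olfactory receptor level, and Cyp2t4 read below it.

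The family varied more between arrays of 1 substrain than most genes did, and so did several other lists of liver genes. Over the 34 members above the olfactory receptor level the median pooled within-group SD was 0.26 (log2), against 0.15 over the 11929 genes above that level. In 14 of the 34 members (41.2%) the SD was above 0.31, the 90th percentile of those genes, and in 2 it was below the 10th percentile, 0.07. Among these 34 the largest SDs were those of Cyp2b9 (0.998), Cyp2c53-ps (0.95), Cyp2c38 (0.73) and Cyp2d37-ps (0.68). Cyp2b10 (0.55), Cyp2u1 (0.53) and Cyp2a4 (0.52) came next. Cyp2w1 (0.04), Cyp2e1 (0.06), Cyp2c29 (0.08) and Cyp2d26 (0.09) had the smallest. Of the lists described below, the median SD was 0.34 for male-high, 0.28 for acute phase, 0.26 for female-high genes and 0.25 for other CAR and PXR targets. It was 0.22 for periportal and 0.18 for pericentral genes, and 0.15 for hepatocyte markers. These list values are over all measured genes of a list, whatever their level. Over all 50 Cyp2 members the median SD was 0.22, against 0.14 over all 23627 genes and shared sets. A wide spread was thus not particular to the Cyp2 family. These are descriptions over 6 arrays, and close copies may not be independent of each other.

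**Figure D3:**
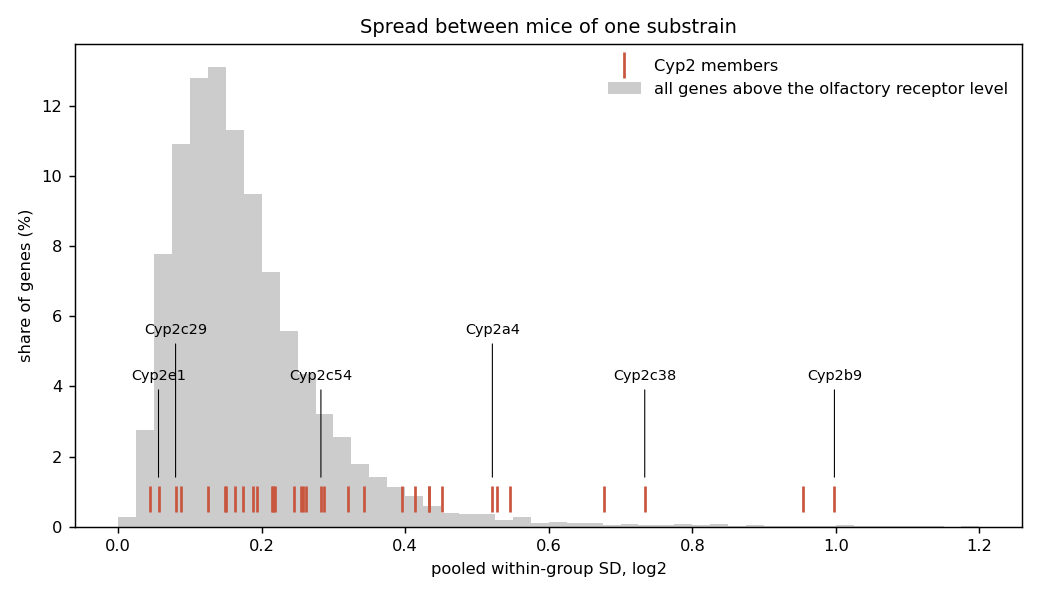
Pooled within-group SD (log2) of the 11929 genes above the olfactory receptor level, as the share of genes per bin in grey, with each of the 34 Cyp2 members above that level as a red tick. Of the members, 14 lie above 0.31, the 90th percentile of the genes; 11 genes with an SD over 1.2 are not drawn.

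The spread had a shape: the arrays of Balb/c were ordered in much the same way across the members. Several other lists of liver genes had the same order of Balb/c arrays by their means, as given below. Balb/c replicate 2 was the lowest Balb/c array in 27 of the 34 members (79.4%) and the highest in 0, whereas over all genes above the olfactory receptor level it was lowest in 37.2%. Balb/c replicate 3 was the highest in 23 (67.6%, against 32.4%). With renewed quantile normalization replicate 2 was lowest in 21 (61.8%, against 31.7%), with median centring in 28 (82.4%, against 43.6%), and among the 21 members outside Cyp2c in 16 (76.2%). In Balb/cBy, replicate 2 was the highest array in 19 of the 34 (55.9%, against 46.9%) and replicate 1 the lowest in 16 (47.1%, against 51.8%), both near their background.

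**Figure D4:**
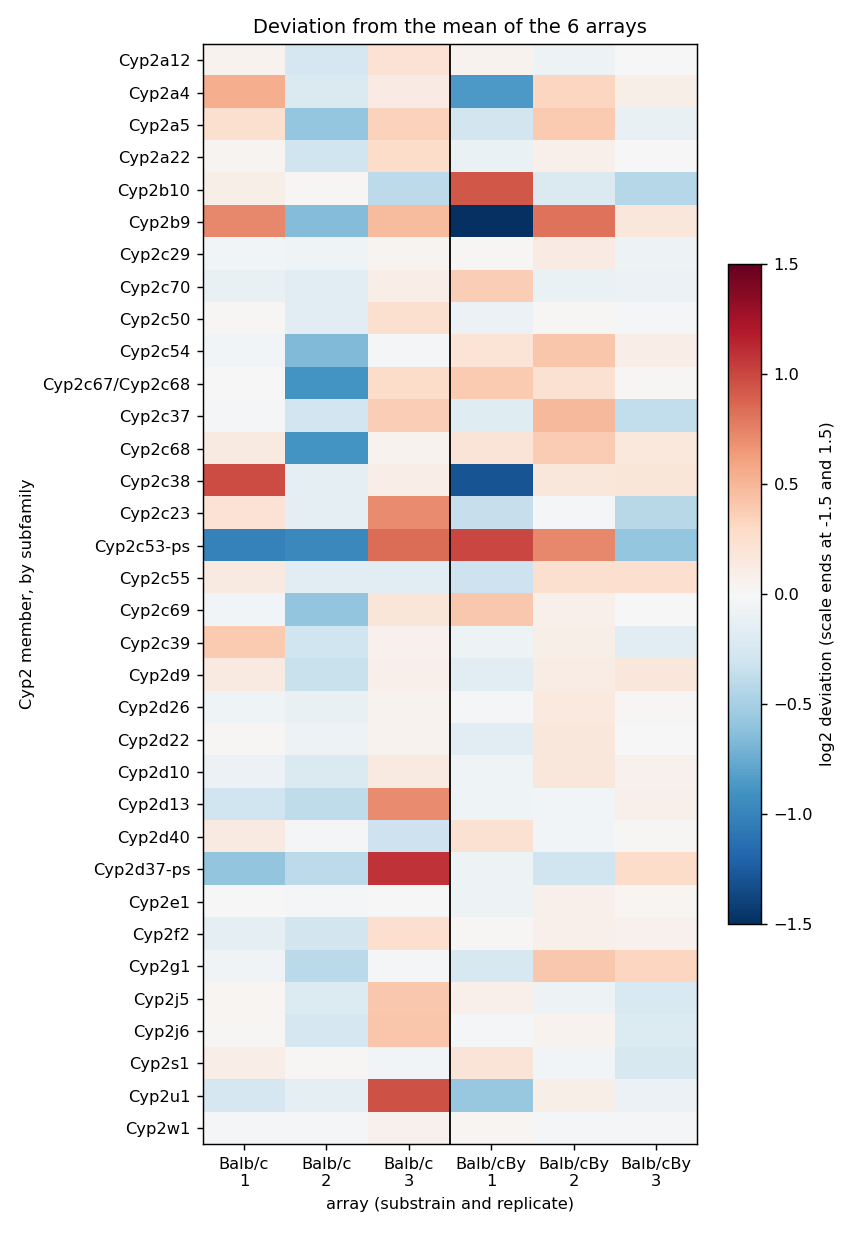
Deviation of each of the 34 Cyp2 members from its own mean over the 6 arrays (log2, blue below and red above, colour scale ending 1.5 below and above), with arrays as columns and the substrains parted by the black line. Balb/c replicate 2 is blue in most rows, while Cyp2b9, Cyp2a4 and Cyp2c38 are darkest on Balb/cBy replicate 1, where Cyp2b10 is red.

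The mean log2 level of the 34 members was 10.88, 10.55 and 11.07 in Balb/c and 10.78, 10.99 and 10.82 in Balb/cBy. The 13 measured hepatocyte markers averaged 12.58, 12.47 and 12.64 in Balb/c and 12.46, 12.65 and 12.63 in Balb/cBy, so Balb/c replicate 2 was lowest in its group there too, by less. Acute phase genes, which liver makes more of in inflammation, ran the other way in Balb/c by their mean. Their 25 measured members averaged 12.21, 12.38 and 11.59 there and 12.56, 12.22 and 12.17 in Balb/cBy. Single genes of the list differed in this. In Balb/c, Saa2 read 13.91, 13.87 and 9.94 and Lcn2 12.20, 12.23 and 9.95. Crp read 12.79, 12.60 and 12.99 there and Fgb 13.16, 13.41 and 13.58, both highest on replicate 3. The part of any of these lists in the order of the Cyp2 members was not tested. In whole liver RNA, fewer cells of a type and less RNA per cell cannot be told apart.

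**Figure D5:**
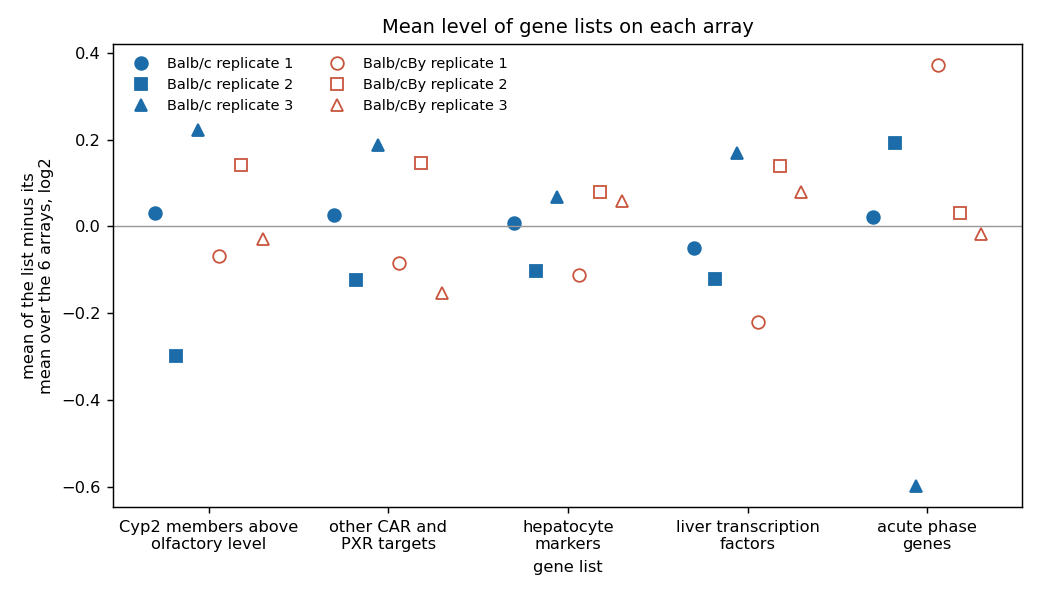
Mean level of 5 gene lists on each array, as the difference from the list's mean over the 6 arrays (log2); filled blue symbols are Balb/c, open red symbols Balb/cBy, and the shape gives the replicate. For the 34 Cyp2 members Balb/c replicate 2 is lowest and Balb/c replicate 3 highest, and for the acute phase genes Balb/c replicate 3 is lowest.

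The partners that supply electrons and haem to these enzymes were taken as a list of 18 genes, 16 of them measured. By limma's adjusted p 0 passed, 2 of the 16 had an unadjusted p under 0.05, both lower in Balb/cBy, and the median difference was 0.04. As background for this and the lists below, 3.74% of all genes had an unadjusted p under 0.05. By direction, 11614 of all 23627 genes and 6779 of the 11929 above the olfactory receptor level were higher in Balb/cBy. Cpox, an oxidase of haem synthesis, read 10.42, 10.50 and 10.55 in Balb/c and 10.11, 9.94 and 10.08 in Balb/cBy. The groups did not overlap, and the difference was -0.45 ± 0.09 (SE; unadjusted p = 0.00142 and adjusted p = 0.422 by limma). Pgrmc1, a haem-binding membrane protein that associates with cytochromes P450, differed by -0.34 ± 0.12 (SE). Hmox1, which degrades haem, differed by 0.41 ± 0.19 (SE) with overlapping groups.

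Of 35 nuclear receptors and liver factors known to control Cyp2 genes, 33 were measured, 16 higher and 17 lower in Balb/cBy, with a median difference of -0.0012. By limma's adjusted p 0 passed. Where 3.74% of all genes had an unadjusted p under 0.05, 3 of these 33 did. These were Cebpa, a factor of mature hepatocytes, at -0.36 ± 0.11, Nr0b2, a repressor of nuclear receptors, at -0.44 ± 0.16, and Foxa3 at 0.46 ± 0.19 (SE). The receptor genes themselves differed by -0.10 ± 0.18 for Nr1i3, which encodes CAR, and 0.05 ± 0.15 (SE) for Nr1i2, which encodes PXR. Nr1i3 read 10.94, 10.67 and 11.45 in Balb/c and 10.86, 10.96 and 10.94 in Balb/cBy, with Balb/c replicate 2 lowest and replicate 3 highest of all arrays.

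Of 30 other targets of CAR and PXR, 25 were measured, 9 higher and 16 lower, with a median of -0.05. By limma's adjusted p 0 passed. At an unadjusted p under 0.05, which 3.74% of all genes met, there was 1, the bile acid transporter gene Slco1a4 at -0.78 ± 0.29 (SE). Gstt1, a glutathione transferase, and Cyp3a13 differed by 0.36 ± 0.17 and 0.35 ± 0.17 (SE). As a list they averaged 10.25, 10.10 and 10.41 in Balb/c and 10.14, 10.37 and 10.07 in Balb/cBy.

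Liver genes that differ between the sexes were listed apart from the Cyp2 family. Of 20 measured male-high genes 13 were higher and 7 lower in Balb/cBy (median 0.07), with 0 past the adjusted threshold by limma. At an unadjusted p under 0.05, which 3.74% of all genes met, there were 2, Egfr at 0.63 ± 0.16 and Serpina1e at 0.26 ± 0.10 (SE). Of 24 measured female-high genes 9 were higher and 15 lower (median -0.07), with 0 past the adjusted threshold and 3 at an unadjusted p under 0.05. These were Ntrk2 at -0.66 ± 0.17, Hamp2 at -0.65 ± 0.25 and Sult3a1 at 0.29 ± 0.11 (SE), the last read at 4.48 to 5.01 on the 6 arrays. Of the 24 genes 14 were at or below the olfactory receptor level by their mean, Hamp2 and Sult3a1 among them. The female-high list averaged 7.60, 7.31 and 7.42 in Balb/c and 7.29, 7.47 and 7.38 in Balb/cBy, with Balb/c replicate 2 and Balb/cBy replicate 1 lowest in their groups, as for Cyp2b9. Each array mean of that list was under the olfactory receptor level. The male-high list averaged 10.89, 10.82 and 11.35 in Balb/c and 11.24, 11.05 and 10.88 in Balb/cBy, highest on Balb/c replicate 3 and, within Balb/cBy, on replicate 1. It too was lowest in Balb/c on replicate 2, so that low array was common to both lists.

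Zonation outside the Cyp2 family was counted as well. Of 17 measured pericentral genes 11 were higher and 6 lower (median 0.15), and of 16 measured periportal genes 6 were higher and 10 lower (median -0.10). Without Balb/cBy replicate 1 the periportal genes were 8 higher and 8 lower (median 0.03). The pericentral genes were then 11 higher and 6 lower (median 0.23). With all arrays 0 in both lists passed limma's adjusted threshold, and where 3.74% of all genes had an unadjusted p under 0.05, 1 in each did. Those were the ammonia channel gene Rhbg at 0.36 ± 0.13 and the mitochondrial carrier gene Slc25a47 at -0.29 ± 0.12 (SE). Among the acute phase genes 22 of 25 were higher in Balb/cBy (median 0.22), where 6779 of the 11929 genes above the olfactory receptor level were higher. Of the 25, 0 passed the adjusted threshold and 4 had an unadjusted p under 0.05, among them Steap4 at 1.09 ± 0.22 (SE). The largest difference went the other way, that of Saa3 at -1.41 ± 1.07 (SE). Saa3 read 13.88, 13.73 and 9.37 in Balb/c and 10.57, 10.60 and 11.60 in Balb/cBy. The mean difference of the list was 0.26 with all arrays and 0.02 without Balb/c replicate 3, when 17 of 25 were higher and the median was 0.15. Without Balb/cBy replicate 1 the median was 0.08, with 22 higher.

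None of the cell type markers passed limma's adjusted threshold. At an unadjusted p under 0.05, which 3.74% of all genes met, there were 4 of 11 lymphocyte markers (3 of them lower in Balb/cBy), 3 of 12 stellate cell, 2 of 13 Kupffer cell, 2 of 8 neutrophil and 1 of 13 hepatocyte markers, and 0 in the other lists. Of the lymphocyte markers 7 of 11, and of the neutrophil markers 6 of 8, were at or below the olfactory receptor level, among those counted Ms4a1, Jchain, Retnlg and S100a8 by their mean. The mean of the exocrine pancreas markers ran from 7.65 to 8.37 in Balb/c and from 7.53 to 7.71 in Balb/cBy, highest on Balb/c replicate 3. Of these markers 6 of 6 were lower in Balb/cBy (median -0.31). Without Balb/c replicate 3, 4 were lower and 2 higher (median -0.05). Kidney and lung markers averaged 7.19 to 7.33 over the 6 arrays. Of the stellate cell and fibroblast markers 11 of 12 were higher in Balb/cBy, and 8 of 12 without Balb/c replicate 3. They averaged 9.24 to 9.56 in Balb/c and 9.42 to 9.75 in Balb/cBy. Kupffer cell and macrophage markers averaged 9.17 to 9.86 and 9.47 to 9.77, endothelial markers 9.56 to 9.68 and 9.49 to 9.78, and adipocyte markers 7.97 to 8.14 and 7.83 to 8.50. Cholangiocyte, lymphocyte and neutrophil markers averaged 7.0 to 7.69 over the 6 arrays. Their part in any Cyp2 value was not tested.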

How the data were processed

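The deposited values are log2 signals, 1 per probe set and array, made by the authors with RMA per the submitters' processing notes; version and genome build: not given in the sources used here. RMA includes a background correction and a quantile normalization, and differences near background may be compressed, which was not tested. Per the labels' protocols, 500 ng of Trizol-extracted RNA was labelled for each array. The annotation lists 25335 of the 41345 probe sets, 23521 with 1 symbol and 1814 with several; the other 16010 are unnamed here.

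Limma 3.58.1 in R 4.3.3 fitted the substrain to all 25335, with empirical Bayes moderation, two-sided tests and Benjamini-Hochberg adjustment at 0.05. SE and 95% intervals are limma's. The fit was tested on simulated data. An exact permutation test of 3 against 3 arrays cannot give a p under 0.1. The number of arrays limits the precision.

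The members, gene lists and settings were chosen with earlier results of these data known. Named by rule were the highest member of each subfamily, members with an unadjusted p under 0.05 or groups that do not overlap, the 6 largest differences, the 5 largest within-group SDs and the shared set, and the 3 list genes of smallest p, not all of them printed; the remaining members and list genes were picked for the text with their values in view. Alternatives were other moderation, array weights, a replicate block, renewed normalization, other sets of probe sets and arrays left out. Promoters were aligned with Biopython 1.88.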

Additional observations from a re-analysis of the deposited data

How the results depend on the processing

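In all 18 other settings, 0 Cyp2 members had an adjusted p under 0.05, and the members' median difference stayed between -0.0452 and 0.0732. The number of all probe sets called was 0 except for 53 with array weights, 0 to 6 with 1 array left out (2 on leaving out Balb/c replicate 3 and 6 on leaving out Balb/cBy replicate 1) and 14 without the 2 arrays of lowest weight. Members at an unadjusted p under 0.05, 3 in the reported fit, numbered 1 without moderation, 6 with array weights, 2 to 9 with 1 array left out and 10 without the 2 arrays of lowest weight. Array weights and the 2-array exclusion raised the share over all genes as well, to 7.44% and 9.69%.

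Same-numbered arrays did not deviate together: the correlations of their deviations from the group means were -0.326, -0.177 and -0.245, and no array correlated best with its own number. With the replicate block 0 probe sets and 0 members passed and 2 members had an unadjusted p under 0.05.

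Among the 25 members named by rule, the sign held in every setting that tested them for Cyp2c23, Cyp2c38, Cyp2c53-ps, Cyp2c54, Cyp2c65, Cyp2c66, Cyp2c68, the set shared by Cyp2c67 and Cyp2c68, Cyp2d12, Cyp2g1 and Cyp2r1. It turned in the others, none of them called; the cause was not tested. With 1 array left out the ranges of those that turned were -0.1344 to 0.1005 for Cyp2a12, -0.2293 to 0.4455 for Cyp2b10, -0.8651 to 0.3048 for Cyp2b9, -0.0069 to 0.0906 for Cyp2c29, -0.0245 to 1.0638 for Cyp2c40, -0.3834 to 0.4539 for Cyp2d37-ps, -0.0698 to 0.1758 for Cyp2d9, -0.0134 to 0.0634 for Cyp2e1, -0.0015 to 0.2610 for Cyp2f2, -0.2978 to 0.0102 for Cyp2j5, -0.1658 to 0.0523 for Cyp2s1, -0.1224 to 0.0479 for Cyp2t4, -0.6025 to 0.0025 for Cyp2u1 and -0.0309 to 0.0181 for Cyp2w1. Without the 2 arrays of lowest weight Cyp2a12 was 0.0715, Cyp2b10 -0.3762, Cyp2b9 0.4484, Cyp2d37-ps 0.4766, Cyp2u1 0.1922 and Cyp2w1 0.0005. With array weights Cyp2b10 was -0.1910 and Cyp2d37-ps 0.3376, with median centring Cyp2a12 was 0.0028, and with the mean of its probe sets Cyp2c29 was -0.0469. The share of members lowest on Balb/c replicate 2, a count made after the data were seen, was 66.0% over members of every level. No scanner values were used, so saturation and background of single probes were not checked.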
